A study of Homo sapiens with 9 samples.

Results

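Messenger RNA levels of 10 genes that are typical of liver, most of them coding for plasma and acute phase proteins, were examined in the lung adenocarcinoma line A549, an established human cell line. The genes were FGA, FGB, FGG, SERPINA1, AFP, AGT, SAA1, SAA2, A1CF and AADAC, a list matched by symbol to 10 of the 60676 genes counted. No threshold was set on their levels or changes, but the list was chosen with earlier results of these data known. Counts of its called genes below are therefore descriptions and not a test of the list. Of the 10, A1CF and AADAC do not code for secreted proteins: A1CF is a nuclear RNA-binding protein and AADAC an enzyme of the endoplasmic reticulum.

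RNA sequencing was done on 9 libraries in 3 groups of 3. Each group carried a different lentiviral short hairpin RNA: shNT, which is directed at no target, or shLITATS1-1 or shLITATS1-2, a pair of different hairpins against the long noncoding RNA LITATS1. In all 3 groups, controls included, cells were kept for 2 days after transduction, then selected with puromycin and harvested 3 days later. The series calls the 3 libraries of a group biological replicates, but the labels do not say if each had its own transduction, so the p-values below describe the spread among these libraries and in a single cell line.

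In the adult body, most of these proteins are made by hepatocytes, and several rise in blood during the acute phase response, in which interleukin-6 acts through the receptor subunit gp130 and the transcription factor STAT3. Interleukin-1 acts alongside it through NF-κB and C/EBP factors, and it is the main driver of serum amyloid A. Basal transcription of many liver genes depends on a circuit of HNF4, FOXA and C/EBP factors, part of which is also active in epithelia of endodermal origin such as lung.

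The fibrinogen genes are shown first by sequence because the 3 chains are made for 1 protein and lie side by side on chromosome 4, yet their counts diverged between the hairpins. The sequences are from RefSeq on GRCh38.p14, for FGA chr4:154590767-154590992 on the minus strand, for FGB chr4:154562730-154562955 on the plus strand and for FGG chr4:154612801-154612827 on the minus strand. Those of FGA and FGB lie just before the first annotated exon. For FGG only 27 bases are given, since exons annotated for some of its transcripts cover the whole region before the start. Each reads 5′ to 3′ towards its gene, and capitals mark the C/EBP motif TTGCNNAA, at FGA on the opposite strand, or the interleukin-6 response element core CTGGGAA.
FGA: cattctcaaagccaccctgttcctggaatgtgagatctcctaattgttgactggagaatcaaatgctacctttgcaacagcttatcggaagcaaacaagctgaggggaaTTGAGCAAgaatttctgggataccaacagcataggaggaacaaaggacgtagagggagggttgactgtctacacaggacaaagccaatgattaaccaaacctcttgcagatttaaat
FGB: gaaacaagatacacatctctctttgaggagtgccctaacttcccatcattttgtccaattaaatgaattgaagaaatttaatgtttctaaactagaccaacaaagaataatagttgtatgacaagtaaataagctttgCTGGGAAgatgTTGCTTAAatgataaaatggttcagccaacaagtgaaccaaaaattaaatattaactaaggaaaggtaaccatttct
FGG: tgtgcaaaatCTGGGAAcctgacagta

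Over the 250 bases before each RefSeq start, searched on both strands, CTGGGAA was present at FGB, FGG and AGT, and in 9.15% of 35116 such windows of all genes. The C/EBP motif TTGCNNAA was found at FGA, FGB and AFP, against 9.05% of windows, and TATAAA at AFP, AGT and A1CF, against 10.7%. At FGA the C/EBP motif began 141 bases before the RefSeq start, and at FGB 101 and 132 bases before its 2 RefSeq starts. The sequences printed above end 24 bases before the start at FGA and before the first of the starts at FGB. Distances counted on them are shorter. Entries existed for 8 of the 10 genes, with 10 starts; SAA1 and SAA2 had none. These matches describe letters in a window and were not tested for binding.

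Libraries held 24556848 to 24671296 fragments, and genes received 19610514 to 19989652 of them. Between replicates the chi-square statistic per degree of freedom was 1.47 to 2.72 over 9 pairs, 1 being sampling noise alone. It was highest where replicate 1 of shNT met the other shNT libraries (2.72 and 2.65, against 1.69 between those), and 2.59 between replicates 1 and 3 of shLITATS1-2. The share of fragments that did not align was 3.66% to 3.86% with shNT and 5.39% to 5.57% in the 6 libraries of the other groups. LITATS1, listed under the symbol ZC3H12A-DT, was at 15.1 ± 1.51 CPM (counts scaled to a library size of 1e+06) with shNT, 3.34 ± 0.405 with shLITATS1-1 and 3.02 ± 0.321 with shLITATS1-2 (SD, n = 3). The log2 change was -2.18 and -2.32 (adjusted p = 1.05e-27 and 3.78e-29, by the quasi-likelihood test of edgeR, with Benjamini-Hochberg adjustment over all tested genes), and the hairpins did not differ detectably (adjusted p = 0.438). Levels here and below are CPM scaled by TMM, a factor per library that offsets differences in RNA composition, and a gene is called higher or lower at an adjusted p under 0.05 over all 15500 genes tested.

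Of the 10 genes, 9 had enough counts to be tested, SAA2 being the exception. With shLITATS1-1 against shNT, 7 were called higher (FGA, FGB, FGG, SERPINA1, AFP, A1CF and AADAC), where 30.5% of all tested genes were called higher. AGT and SAA1 were called lower, where 30.5% of all tested genes were called lower. With shLITATS1-2 against shNT, FGG and AADAC were called higher, 2 of 9 against 27.8% of all tested genes, and FGA, FGB, AGT and SAA1 lower, 4 of 9 against 28.9%. SERPINA1, AFP and A1CF did not pass with that hairpin. Between the hairpins, 0 were called higher with shLITATS1-2 than with shLITATS1-1 and 7 lower, against 30.7% and 30.2% of all tested genes. The median log2 change over the 9 genes was 0.93 with shLITATS1-1 and -0.26 with shLITATS1-2, where the medians over all tested genes were -0.0070 and -0.0040. SAA1 passed the low-count filter through 2 shNT libraries and 1 shLITATS1-1 library and no shLITATS1-2 library, so its presence among the tested genes leans on the group where it was high.

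**Figure D1:**
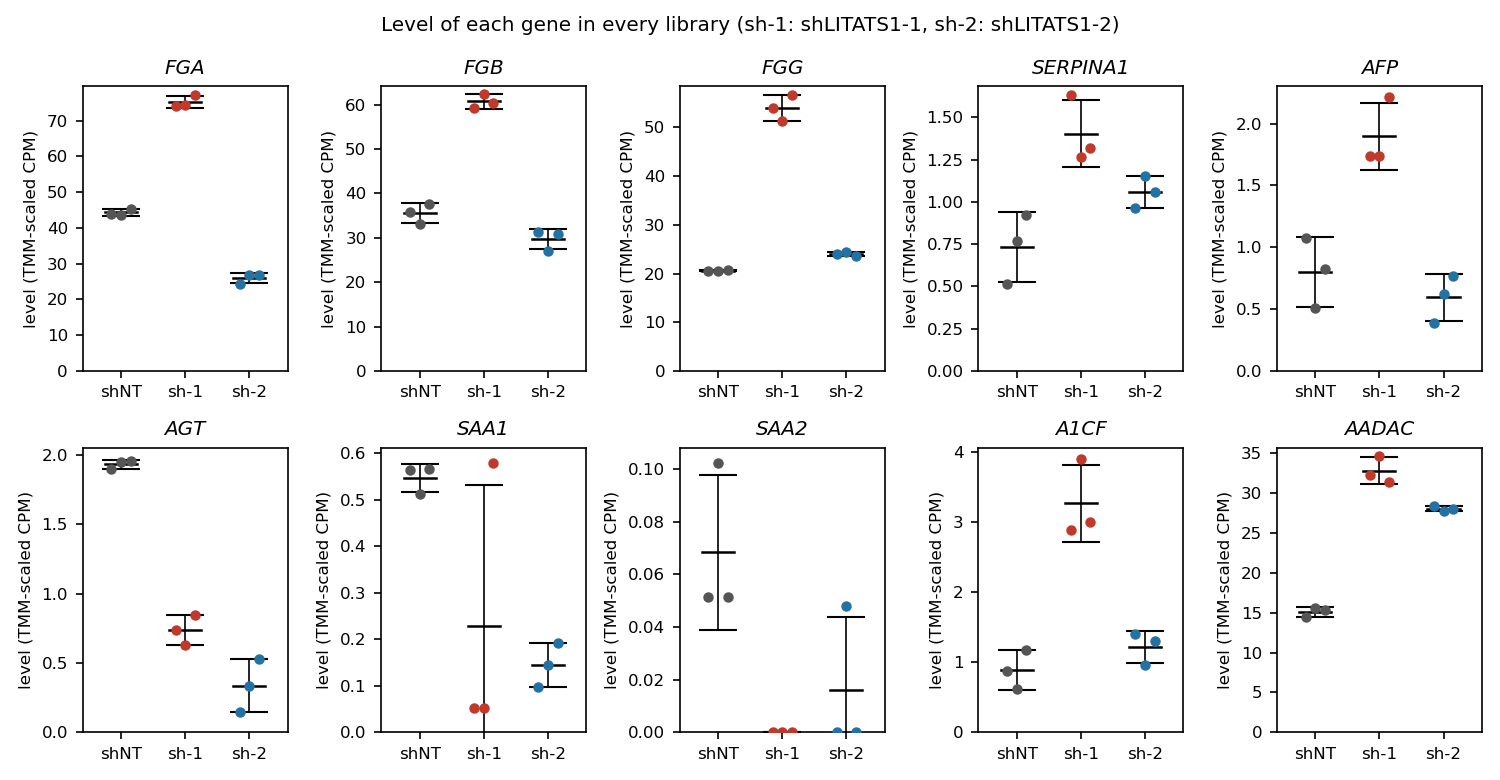
Level of each of the 10 genes in TMM-scaled CPM (vertical axis, linear, from 0, with its own range for each gene) in the 9 libraries by group; points are libraries and black bars the mean and SD of 3. With shLITATS1-1 (sh-1), FGA, FGB, FGG, SERPINA1, A1CF, AFP and AADAC sit above every shNT library. AGT falls from 1.93 to 0.737 and 0.337, and for SAA1 with shLITATS1-1 the lower bar runs below 0 and is cut at the axis.

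Length-corrected levels with shNT placed the fibrinogen chains and AADAC far above the other 6 genes. In CPM per kilobase of exon, FGB stood at 13.1 ± 0.832, FGA at 11.2 ± 0.225, AADAC at 9.07 ± 0.362 and FGG at 5.72 ± 0.0225 (SD, n = 3), which are the 78.9th, 75.8th, 71st and 59.7th percentiles of 15397 tested genes with a known length. AGT followed at 0.843 ± 0.0135 and SAA1 at 0.687 ± 0.0381. AFP at 0.247 ± 0.0867, SERPINA1 at 0.150 ± 0.0425 and A1CF at 0.0926 ± 0.0296 came next, and each of these overlapped its neighbour in the order within 1 SD. SAA2 was lowest at 0.0307 ± 0.0132.
The order changed with the hairpins. With shLITATS1-1 FGB led at 22.4 ± 0.591 CPM per kilobase, followed by AADAC at 19.7 ± 1.03 and FGA at 19.0 ± 0.399, which overlapped within 1 SD, and by FGG at 15 ± 0.738. With shLITATS1-2 AADAC led at 16.8 ± 0.176, FGB followed at 10.96 ± 0.845, and FGG at 6.67 ± 0.1199 and FGA at 6.56 ± 0.347 overlapped.

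FGA codes for the fibrinogen α chain, FGB for the β chain and FGG for the γ chain. A secreted fibrinogen molecule holds a pair of each, and thrombin turns it into fibrin. FGA rose with the first hairpin and fell with the second. Its libraries read 43.9, 43.7 and 45.3 CPM with shNT, 74.2, 74.5 and 77.0 with shLITATS1-1, and 24.4, 26.7 and 26.7 with shLITATS1-2. No library of one group reached the range of another. The log2 change was 0.76 ± 0.0462 (SE, adjusted p = 4.04e-24) with shLITATS1-1 and -0.77 ± 0.0535 (adjusted p = 4.75e-21) with shLITATS1-2, and the direct comparison of the hairpins gave -1.54 ± 0.0498 (adjusted p = 1.77e-39, edgeR with Benjamini-Hochberg adjustment, as for all adjusted p-values below).

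FGB libraries read 35.8, 33.2 and 37.7 CPM with shNT, 59.3, 62.4 and 60.5 with shLITATS1-1, and 31.2, 27.1 and 30.8 with shLITATS1-2. The groups did not overlap, but the step between shNT and shLITATS1-2 was small beside the other. FGB rose by a log2 change of 0.77 ± 0.0521 (adjusted p = 1.08e-21) with shLITATS1-1 and changed by -0.26 ± 0.0573 (adjusted p = 7.33e-05) with shLITATS1-2. The hairpins differed by -1.03 ± 0.0531 (adjusted p = 7.49e-28).

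FGG libraries read 20.5, 20.6 and 20.7 CPM with shNT, 54.0, 51.4 and 56.7 with shLITATS1-1, and 24.1, 24.4 and 23.6 with shLITATS1-2. Here all 6 libraries with a LITATS1 hairpin lay above shNT. FGG rose by a log2 change of 1.39 ± 0.0564 (adjusted p = 9.24e-34) with shLITATS1-1, the widest change of the 3 chains, and by 0.22 ± 0.0632 (adjusted p = 0.00193) with shLITATS1-2. Between hairpins the value was -1.17 ± 0.0542 (adjusted p = 2.24e-30).

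Summed over the 3 chains, fibrinogen transcripts amounted to 100.4 ± 3.10 CPM with shNT, 189.9 ± 3.71 with shLITATS1-1 and 79.6 ± 1.45 with shLITATS1-2 (SD, n = 3). In RNA from whole cultures, fewer cells making a transcript and less of it per cell cannot be told apart, here or for any gene below. Of 6 epithelial markers, the keratins KRT8 and KRT18 also rose with shLITATS1-1 (log2 change 0.79 and 0.92) and fell with shLITATS1-2 (-0.14 and -0.26). The summed level of the 6 was 5518 to 5802 CPM with shNT, 9052 to 9226 with shLITATS1-1 and 5213 to 5527 with shLITATS1-2. KRT8 was the most abundant, and KRT7 stood above KRT18 with shNT, at 1364 against 1151 CPM. The other markers were split: KRT7 (0.22 and 0.14) and KRT19 (0.44 and 1.00) rose with both hairpins, CDH1 stood at -0.09 (adjusted p = 0.157) and fell by 0.46 on the log2 scale, and EPCAM passed with neither. Whether these have a part in the fibrinogen values was not tested.

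The balance of the chains shifted within libraries, where scaling between libraries cannot enter. For every FGA fragment there were 0.465 ± 0.00783 of FGG with shNT, 0.718 ± 0.0245 with shLITATS1-1 and 0.928 ± 0.0548 with shLITATS1-2 (SD, n = 3). The 3 groups did not overlap in this ratio. The ratio of FGG to FGB was 0.580 ± 0.0364 with shNT, 0.890 ± 0.0599 with shLITATS1-1 and 0.813 ± 0.0777 with shLITATS1-2, above shNT with both hairpins and overlapping between them. The ratio of FGB to FGA was nearly the same with shNT and shLITATS1-1, 0.803 ± 0.0378 and 0.808 ± 0.0277, and higher with shLITATS1-2, at 1.282, 1.013 and 1.153 in its 3 libraries. With 3 libraries against 3, an exact two-sided permutation test cannot give a p under 0.1, and it gave 0.1 in 7 of the 9 comparisons (0.13 after Benjamini-Hochberg adjustment over the 9). The other two were FGG to FGB between hairpins, at an exact permutation p of 0.2, and FGB to FGA with shLITATS1-1 against shNT, at 0.9.

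In length-corrected shares of fibrinogen fragments, FGG made up 18.4% to 19.7% with shNT, 25.4% to 27.4% with shLITATS1-1 and 26.5% to 28.8% with shLITATS1-2. FGA made up 36.8% to 38.1%, 33.5% to 33.8% and 25.3% to 28.7% in the same order. FGB kept the largest share in all 9 libraries, from 38.8% to 47.3%.

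**Figure D2:**
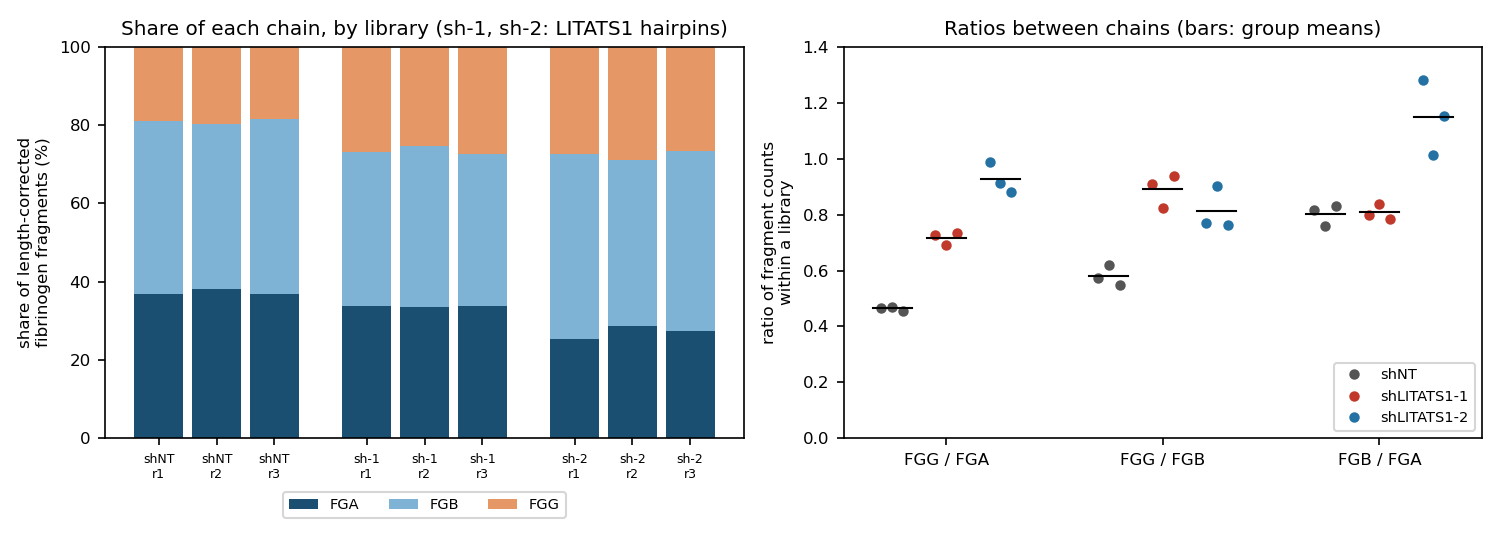
Left, share of each fibrinogen chain among length-corrected fibrinogen fragments (percent, stacked to 100) in each library. Right, ratios of fragment counts between chains; points are libraries and bars group means. FGG to FGA goes from 0.465 with shNT to 0.718 and 0.928, while FGB to FGA stays at 0.803 and 0.808 with shNT and shLITATS1-1 and reaches 1.149 with shLITATS1-2.

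The fibrinogen genes FGB, FGA and FGG occupy chr4:154562956-154571086 (plus strand), chr4:154583126-154590766 (minus) and chr4:154604134-154612967 (minus) in GRCh38 with GENCODE 29, with 12040 and 13368 bases between them. PLRG1, a component of the spliceosome that lies next to FGB, had a log2 change of -0.07 (adjusted p = 0.176) with shLITATS1-1 and -0.33 (adjusted p = 2.14e-09) with shLITATS1-2. LRAT, a retinol-esterifying enzyme on the other flank, had 1 to 7 counts per library and was not tested. FGG thus rose with shLITATS1-2 while FGA, FGB and PLRG1 in the same interval fell.

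SERPINA1 codes for α1-antitrypsin, the plasma inhibitor of neutrophil elastase, whose shortage leads to emphysema. It was at the edge of detection here, with 10, 15 and 18 counts with shNT, 31, 24 and 25 with shLITATS1-1, and 20, 24 and 22 with shLITATS1-2. Both hairpins gave higher counts than any shNT library. It rose by a log2 change of 0.93 ± 0.276 (adjusted p = 0.00272) with shLITATS1-1. The 0.52 ± 0.289 with shLITATS1-2 did not pass (adjusted p = 0.116), and its 95% interval runs from -0.05 to 1.10. The difference between the hairpins, -0.40 ± 0.250, did not pass either (adjusted p = 0.158, interval -0.90 to 0.10). The gene lies at chr14:94376747-94390693 on the minus strand. Its neighbour SERPINA6, which codes for corticosteroid-binding globulin, did not pass with either hairpin, and SERPINA11 had no count in any library.

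AFP codes for α-fetoprotein, the fetal counterpart of albumin and a serum marker of liver cancer. Its libraries held 21, 10 and 16 counts with shNT, 33, 33 and 42 with shLITATS1-1, and 8, 13 and 16 with shLITATS1-2. The shLITATS1-1 libraries stood above all others, while the other two groups overlapped. AFP rose by a log2 change of 1.23 ± 0.260 (adjusted p = 3.41e-05) with shLITATS1-1. With shLITATS1-2 the value was -0.43 ± 0.332 (adjusted p = 0.275), with a 95% interval from -1.09 to 0.23, and the hairpins differed by -1.66 ± 0.274 (adjusted p = 2.62e-07).
AFP lies at chr4:73431138-73456174 on the plus strand, 9726 bases past ALB, the albumin gene. ALB had 5, 3 and 2 counts with shNT, 9, 8 and 6 with shLITATS1-1, and 16, 9 and 9 with shLITATS1-2, too few to be tested, and AFM on the other side had 0 to 2 per library. ALB counts, like those of AFP, were higher with shLITATS1-1 than in any shNT library. They were highest in total with shLITATS1-2, where AFP overlapped shNT. Of the regulators of AFP, ZHX2, a repressor of AFP after birth, rose with both hairpins (log2 change 0.38, adjusted p = 0.00577, and 0.53, adjusted p = 7.57e-05). SALL4, an oncofetal transcription factor, rose with shLITATS1-2 (0.41, adjusted p = 0.0242) and stood at 0.14 (adjusted p = 0.486) with shLITATS1-1.

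AGT codes for angiotensinogen, the protein from which renin releases angiotensin I. It fell with both hairpins. Its libraries held 37, 38 and 38 counts with shNT, 14, 12 and 16 with shLITATS1-1, and 3, 7 and 11 with shLITATS1-2, which is 1.93 ± 0.0309, 0.737 ± 0.105 and 0.337 ± 0.192 CPM (SD, n = 3). No group overlapped another, although the last rests on few counts. The log2 change was -1.38 ± 0.261 (adjusted p = 4.69e-06) with shLITATS1-1 and -2.50 ± 0.305 (adjusted p = 6.91e-11) with shLITATS1-2. The difference between the hairpins, -1.11 ± 0.383, passed (adjusted p = 0.00955) but moved to -0.76 (adjusted p = 0.0982) without replicate 1 of shLITATS1-2, the library with 3 counts.
AGT lies at chr1:230702523-230714297 on the minus strand and shares 156 exon bases, 6.81% of its own, with another annotated gene on the same strand, which had no count. Its neighbour COG2, a Golgi tether subunit, did not pass against shNT with either hairpin, and CAPN9 had no count.

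Of 17 other genes of the renin-angiotensin system, 9 were tested. With shLITATS1-1, 6 were called higher and 3 lower (median log2 change 0.38), against 30.5% and 30.5% of all tested genes. With shLITATS1-2, 4 were higher, 3 lower and 2 did not pass (median 0.15), against 27.8% higher and 28.9% lower. ENPEP, among the 6, passed the low-count filter mainly through shLITATS1-1, with 12, 19 and 18 counts there. It had 7, 6 and 7 with shNT and 6, 11 and 7 with shLITATS1-2. AGTR1, the angiotensin II type 1 receptor, rose with both, by 1.54 (adjusted p = 1.30e-09) and 1.26 (adjusted p = 5.94e-07), opposite in direction to AGT. It went from 1.15 ± 0.108 CPM with shNT to 3.35 ± 0.844 and 2.75 ± 0.344. ANPEP, which degrades angiotensin III, rose by 0.83 and 0.22, and the angiotensin-cleaving peptidases NLN and THOP1 fell with both hairpins, NLN by 0.39 and 0.41 and THOP1 by 0.37 and 0.31 on the log2 scale.

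SAA1 and SAA2 code for serum amyloid A, apolipoproteins that rise most steeply in the acute phase. SAA1 was counted at 11, 10 and 11 with shNT, 1, 1 and 11 with shLITATS1-1, and 2, 3 and 4 with shLITATS1-2. With shLITATS1-1 a single library, replicate 3, equalled shNT, and the other two had 1 count each. The log2 change of SAA1 was -1.24 ± 0.502 (adjusted p = 0.0284) with shLITATS1-1, and -0.78 without either of the 1-count libraries (highest adjusted p = 0.201), so that call is not stable. With shLITATS1-2 it fell by 1.87 ± 0.543 on the log2 scale (adjusted p = 0.00241). The hairpins differed by -0.64 ± 0.671, which did not pass (adjusted p = 0.423).
SAA2 had 1, 2 and 1 counts with shNT, none with shLITATS1-1 and 0, 1 and 0 with shLITATS1-2, too few for a fold change. The genes, at chr11:18266174-18269977 and chr11:18239223-18248643, are near copies of each other. Fragments that align to both would be lost to the counting, so their split and their total are uncertain. SAA2 also shares 267 exon bases, 12% of its own, with the annotated gene SAA2-SAA4 on the same strand, which had no count. Fragments in that stretch may be missing too. Summed over both genes the counts were 12, 12 and 12, then 1, 1 and 11, then 2, 4 and 4. HPS5, next to SAA1, had a log2 change of -0.36 (adjusted p = 1.14e-08) with shLITATS1-1 and 0.05 (adjusted p = 0.377) with shLITATS1-2.

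A1CF is the RNA-binding partner of the cytidine deaminase APOBEC1 in the editing of apolipoprotein B mRNA. It had 17, 12 and 23 counts with shNT, 55, 74 and 57 with shLITATS1-1, and 29, 20 and 27 with shLITATS1-2. The shLITATS1-1 libraries stood clear of the rest, and the others overlapped. A1CF rose by a log2 change of 1.87 ± 0.223 (adjusted p = 2.55e-11) with shLITATS1-1, the largest rise of the 9 tested genes. With shLITATS1-2 the value was 0.45 ± 0.272 (adjusted p = 0.15, 95% interval -0.09 to 1.00), and the hairpins differed by -1.41 ± 0.204 (adjusted p = 8.91e-09).
The gene lies at chr10:50799409-50885675 on the minus strand, and 3.94% of its exon bases overlap ASAH2B on the opposite strand. ASAH2B changed by 0.29 (adjusted p = 0.00178) and -0.10 (adjusted p = 0.302), and fragments in the shared stretch may be missing from both. The editing partners were at or near 0: APOB had no count in any library and APOBEC1 1 count in all 9. Of 10 other genes tied to this editing, 6 were tested (median log2 changes -0.08 and -0.24). With shLITATS1-1, 1 rose and 3 fell, against 30.5% and 30.5% of all tested genes. With shLITATS1-2, 2 rose and 4 fell, against 27.8% and 28.9%. RBM47, which can serve in place of A1CF, rose slightly with both (0.24 and 0.23), and HNRNPAB, which binds APOBEC1, fell by 0.34 and 0.51 on the log2 scale.

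AADAC codes for arylacetamide deacetylase, a serine esterase of the endoplasmic reticulum that hydrolyses drugs and lipid esters. Its libraries read 14.4, 15.6 and 15.3 CPM with shNT, 32.3, 34.7 and 31.4 with shLITATS1-1, and 28.4, 27.8 and 27.97 with shLITATS1-2. All libraries of both LITATS1 hairpins lay above shNT, with little spread. AADAC rose by a log2 change of 1.12 ± 0.0651 (adjusted p = 6.36e-25) with shLITATS1-1 and 0.89 ± 0.0660 (adjusted p = 1.26e-19) with shLITATS1-2. The hairpins differed by -0.23 ± 0.0577 (adjusted p = 5.47e-04). That small difference became -0.09 (adjusted p = 0.147) when libraries were scaled by total count alone.
AADAC lies at chr3:151814037-151828488 on the plus strand. SUCNR1, the succinate receptor gene 45155 bases away, rose with both hairpins too, from 0.974 ± 0.222 CPM to 4.002 ± 0.829 and 4.83 ± 0.323 (log2 change 2.03, adjusted p = 5.04e-14, and 2.30, adjusted p = 3.33e-17). AADACL2 on the other side had 0 or 1 count per library. NCEH1, a cholesteryl ester hydrolase of the same family, rose by 0.44 (adjusted p = 2.24e-16) with shLITATS1-1 and fell by 0.99 on the log2 scale (adjusted p = 8.57e-32) with shLITATS1-2.

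**Figure D3:**
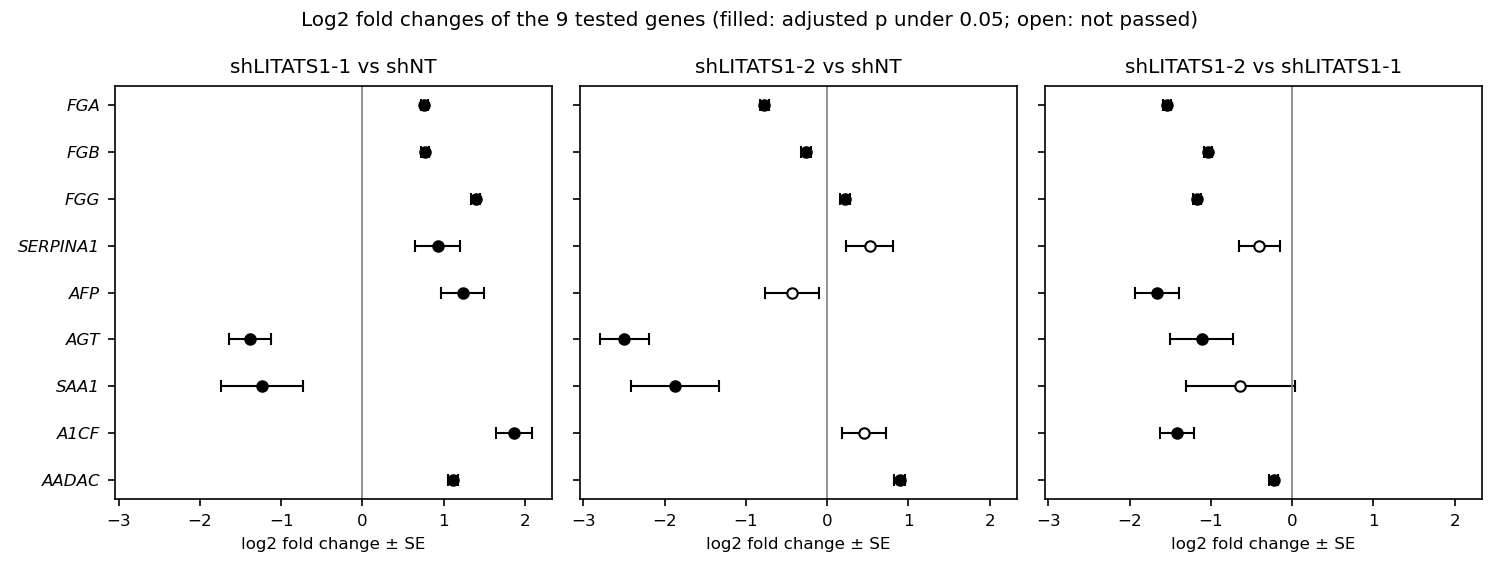
Log2 fold change (horizontal axis, bars are SE) of the 9 tested genes in the 3 comparisons; filled points passed an adjusted p of 0.05 and open points did not. In the left panel 7 genes lie right of 0 and AGT and SAA1 left, while in the right panel, shLITATS1-2 against shLITATS1-1, all 9 lie left of 0 and 7 are filled.

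Genes whose levels over the 9 libraries lay closest to those of the members were found by distance between centred log2 CPM among 11481 protein-coding genes. Closest to the mean of the 3 fibrinogen chains were SLC40A1 (distance 0.146), WWTR1 (0.149) and PDE7B (0.162). With shLITATS1-1 and shLITATS1-2 the log2 change against shNT was 1.06 and -0.25 for SLC40A1, 0.98 and -0.35 for WWTR1, and 0.96 and -0.25 for PDE7B. For SERPINA1 the nearest were PDGFC (0.346), GDPGP1 (0.385) and GALNT12 (0.433), and for AGT, PEG10 (1.19), SLC6A6 (1.202) and GPNMB (1.29). Counting noise enters the distances of low-count targets such as AGT, with 3, 7 and 11 counts with shLITATS1-2. Distances are therefore not comparable between targets.

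Other acute phase genes that could be tested were mostly called higher with the first hairpin. Of 21 such genes outside the 10, 10 were tested. With shLITATS1-1, 8 were called higher, 0 lower and 2 did not pass (median log2 change 0.89). Of all tested genes, 30.5% were higher and 30.5% lower. With shLITATS1-2, 3 were higher, 1 lower and 6 did not pass (median 0.15), against 27.8% higher and 28.9% lower. C4BPB, among the 8, passed the low-count filter only through shLITATS1-1, with 39, 38 and 31 counts there. It had 3, 5 and 4 with shNT and 4, 0 and 2 with shLITATS1-2. C3, the central complement component, read 87.0, 92.0 and 84.6 CPM with shNT, 270.3, 273.1 and 277.4 with shLITATS1-1, and 67.5, 63.9 and 68.2 with shLITATS1-2. It rose by 1.64 (adjusted p = 3.80e-50) and fell by 0.40 on the log2 scale (adjusted p = 4.12e-14). CP, the copper carrier ceruloplasmin, rose with both, by 0.91 (adjusted p = 1.91e-21) and 0.95 (adjusted p = 1.05e-22). C4BPA, a complement inhibitor, rose by 1.74 and 1.24 and C1S, a complement protease, by 0.48 and 0.18. FGL1, a fibrinogen-like protein, rose by 0.87 with shLITATS1-1 and stood at 0.20 (adjusted p = 0.0652) with shLITATS1-2. LBP, which binds bacterial lipopolysaccharide, rose by 0.81 and stood at -0.57 (adjusted p = 0.0852).

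Other plasma proteins showed no common direction. Of 42, 16 were tested. With shLITATS1-1, 7 were higher and 4 lower (median -0.05), against 30.5% and 30.5% of all tested genes. With shLITATS1-2, 3 were higher and 6 lower (median -0.33), against 27.8% and 28.9%. RBP4, the retinol carrier, fell with both hairpins, by 1.08 (adjusted p = 1.05e-17) and 1.11 (adjusted p = 1.91e-18) on the log2 scale. IGFBP1, which binds insulin-like growth factors, rose by 0.74 and 1.27, and ANGPTL4, an inhibitor of lipoprotein lipase, by 1.07 and 0.91. ITIH2, a chain of inter-α-trypsin inhibitor, rose by 0.91 with shLITATS1-1 and changed by -0.29 with shLITATS1-2 (adjusted p = 0.0432). APOC1 fell by 0.91 with shLITATS1-1 and SERPINF2, the plasmin inhibitor, by 0.90 with shLITATS1-2, each without passing in the other comparison.

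Hepatic transcription factors were called in both directions. Of 29, 24 were tested. With shLITATS1-1, 14 were higher, 6 lower and 4 did not pass (median 0.37), where all tested genes had 30.5% higher and 30.5% lower. With shLITATS1-2, 6 were higher, 6 lower and 12 did not pass (median -0.0060), against 27.8% higher and 28.9% lower. HNF4A, a nuclear receptor at the head of the hepatocyte programme, went from 23.6 ± 1.05 CPM with shNT to 52.6 ± 3.03 and 33.9 ± 1.38 (log2 change 1.16, adjusted p = 3.40e-29, and 0.52, adjusted p = 6.06e-12). HNF4G, its paralogue, rose by 0.48 (adjusted p = 0.00294) and fell by 1.43 on the log2 scale (adjusted p = 6.51e-10). FOXA1 rose by 0.58 with shLITATS1-1, whereas FOXA2 fell with both (-0.30 and -0.12, the latter at an adjusted p of 0.0497). PPARA, a fatty acid sensor, rose by 1.43 and 1.06 and GATA6 by 0.77 and 0.86. NR5A2 rose by 0.89 with shLITATS1-1 and stood at -0.09 with shLITATS1-2 (adjusted p = 0.151). ONECUT1 fell with both (-1.18 and -0.77), as did CEBPA (-0.85 and -0.61).

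The signalling genes that drive the acute phase response were split. Of 36, 33 were tested. With shLITATS1-1, 12 were higher and 16 lower (median -0.10), against 30.5% and 30.5% of all tested genes. With shLITATS1-2, 9 were higher and 14 lower (median -0.10), against 27.8% and 28.9%. IL6 itself rose from 1.11 ± 0.331 to 2.90 ± 0.211 CPM with shLITATS1-1 (log2 change 1.38, adjusted p = 5.01e-08) and stood at 1.41 ± 0.158 with shLITATS1-2 (0.35, adjusted p = 0.23). IL6R, its receptor, fell with both (-0.25 and -0.60), and so did IL6ST, the gp130 subunit (-0.10, adjusted p = 0.00757, and -0.81, adjusted p = 1.95e-29). The related cytokine IL11 rose by 1.07 and fell by 0.62 on the log2 scale. STAT3 mRNA did not pass with either hairpin (0.04 and 0.00), nor did CEBPD. SOCS3, a feedback inhibitor induced by STAT3, fell with shLITATS1-1 (-0.36, adjusted p = 2.14e-07) and stood at -0.12 with shLITATS1-2 (adjusted p = 0.068). CEBPB fell by 0.33 on the log2 scale with shLITATS1-1 and stood at -0.01 with shLITATS1-2 (adjusted p = 0.78). On the NF-κB side, NFKBIZ rose by 1.65 and 0.75, IL1RAP, the interleukin-1 receptor's accessory chain, rose by 0.68 and 1.36, and NFKB2 fell by 0.94 and 0.55 on the log2 scale.

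Hepatic enzymes and transporters that could be tested were mostly called higher with the first hairpin. Of 43, 19 were tested. With shLITATS1-1, 14 were higher and 2 lower (median 0.66), against 30.5% and 30.5% of all tested genes. With shLITATS1-2, 6 were higher and 5 lower (median 0.05), against 27.8% and 28.9%. Among the 14, UGT2B7, UGT2B15 and UGT1A6 passed the low-count filter only through libraries with a LITATS1 hairpin. UGT2B7 had 2, 4 and 5 counts with shNT, 47, 42 and 39 with shLITATS1-1, and 13, 14 and 19 with shLITATS1-2. UGT2B15 had 6, 6 and 3, then 60, 54 and 45, then 19, 12 and 16. UGT1A6 had 9, 5 and 9, then 18, 19 and 23, then 13, 4 and 14. The counts and medians lean on the groups where these were high. BAAT, which conjugates bile acids to amino acids, read 12.6 ± 1.16 CPM with shNT, 41.9 ± 2.06 with shLITATS1-1 and 11.3 ± 1.13 with shLITATS1-2 (log2 change 1.73, adjusted p = 2.69e-34, and -0.16, adjusted p = 0.101). ALDH1A1, a retinaldehyde dehydrogenase and among the most abundant transcripts here, went from 6359 ± 110.9 CPM to 9821 ± 88.3 and 3521 ± 26.7 (0.63, adjusted p = 5.78e-33, and -0.85, adjusted p = 1.47e-40). CPS1, the entry enzyme of the urea cycle, rose by 0.11 (adjusted p = 0.0202) and fell by 0.97 on the log2 scale (adjusted p = 1.27e-28). CYP3A5, a drug-oxidising cytochrome P450, rose by 0.91 and 1.54, and TM4SF4 rose by 0.99 and 0.23.

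**Figure D4:**
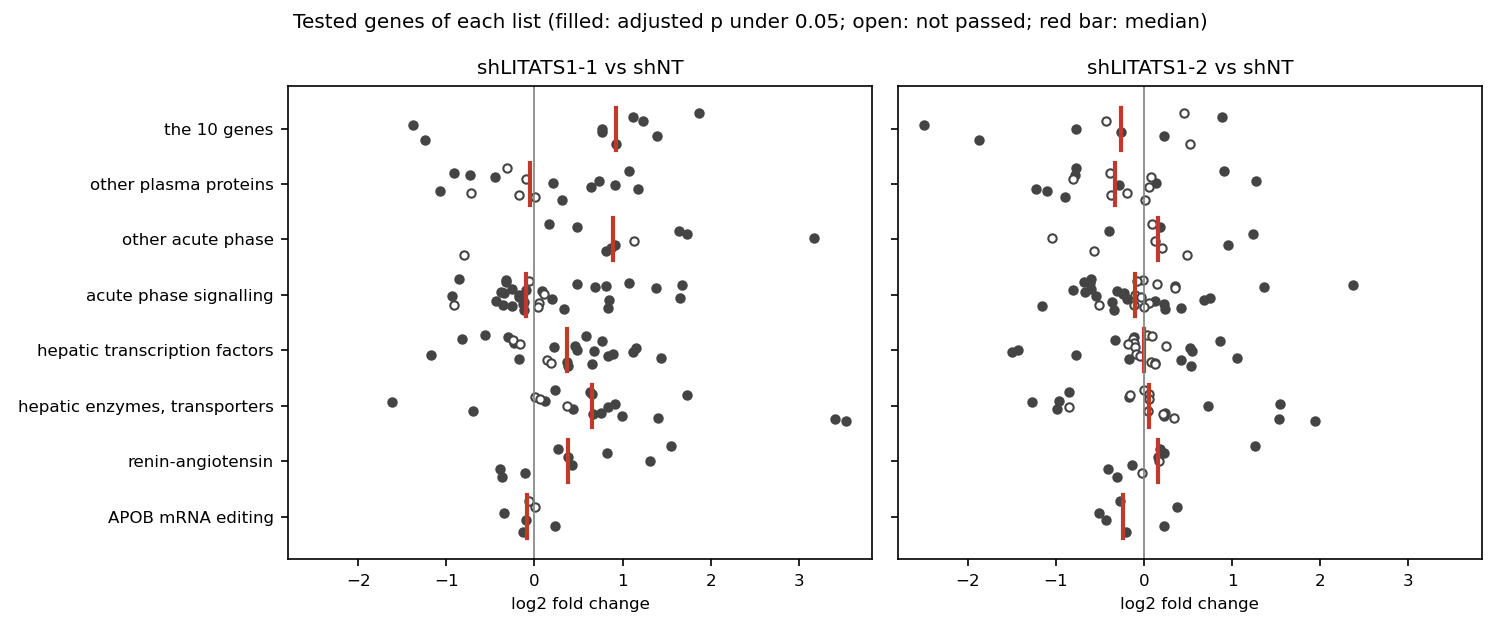
Log2 fold changes (horizontal axis) of the tested genes of each list, 1 point per gene, with shLITATS1-1 (left) and shLITATS1-2 (right) against shNT; filled points passed an adjusted p of 0.05 and red bars are medians. The medians of the 9 tested among the 10 genes and of the tested other acute phase genes lie at 0.93 and 0.89 in the left panel. In the right one they lie at -0.26 and 0.15.

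All 9 hepatocyte markers (ALB, APOA1, APOA2, TTR, SERPINC1, AHSG, APOC3, CYP3A4 and ASGR1) fell under the low-count filter, 2 of them at 0 in every library of shNT and of shLITATS1-1 and 1 in every library of shLITATS1-2. Their summed level was 0.822 to 0.973 CPM with shNT, 0.896 to 1.11 with shLITATS1-1 and 1.25 to 2.08 with shLITATS1-2. The highest counts among them were those of ALB (16, 9 and 9) and AHSG (13, 12 and 6) with shLITATS1-2 and of ASGR1 with shNT (9, 11 and 10), close to those of SAA1 with shNT. Some other plasma proteins of hepatocytes, picked here after their values were seen, were well above these: VTN at 23.8 ± 0.867 CPM, APOH at 8.73 ± 0.388 and AMBP at 4.14 ± 0.879 with shNT (SD, n = 3).
The summed level of 5 immune markers reached at most 0.105 CPM, and of 4 endothelial markers 0.870. The sum of 5 fibroblast markers was 2.56 to 2.98 CPM with shNT, 1.84 to 2.47 with shLITATS1-1 and 1.35 to 1.88 with shLITATS1-2. THY1 accounts for most of it and fell with both hairpins (log2 change -1.02, adjusted p = 5.71e-05, and -1.29, adjusted p = 1.27e-06), while COL1A2 and DCN had 0 to 2 counts per library. The sum of 6 alveolar type II markers was 86.7 to 95.3 CPM, 103.5 to 110.6 and 88.9 to 95.8 in the same order. Nearly all of it was ABCA3, a lipid transporter of lamellar bodies, at 89.5 ± 4.91 CPM with shNT. ABCA3 and NAPSA, the tested members, rose with shLITATS1-1 (0.25 and 1.10) and did not pass with shLITATS1-2, and SFTPC, SFTPB and NKX2-1 had 0 to 3 counts per library. The part of these markers in the results above was not tested.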

How the data were processed

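RNA of A549 cells was sequenced in 9 libraries, 3 per hairpin, on the DNBSEQ platform. The values are counts of fragments per gene, deposited by the authors as 1 unnormalized table. The submitters' processing notes name cutadapt 2.10, STAR 2.7.5a, HTSeq 0.12.4 and the build GRCh38. The annotation release, like the strand setting, is not given in the sources used here, and counts of overlapping, antisense and near-identical genes are uncertain. Counter lines that name no gene held 18.97% to 20.26% of fragments and were left out. Replicates were compared pairwise (9 pairs, chi-square over genes with at least 20 counts in a pair), and each pair differed by more than sampling noise.

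Genes were filtered with filterByExpr (minimum count 10; 15500 of 60676 kept), scaled by TMM and fitted in 1 edgeR 4.0.16 quasi-likelihood model (R 4.3.3, robust, 6 residual degrees of freedom) over all libraries. The 3 pairs of groups were tested two-sided with Benjamini-Hochberg adjustment over all tested genes and a threshold of 0.05. The common biological coefficient of variation was 2.71%. Counts per library are given for low genes, whose precision depth limits. Lengths, coordinates and neighbours came from GENCODE 29, promoters from RefSeq. Ratios between fibrinogen chains used an exact permutation test, also in R.

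The genes, the 7 further lists and the markers were chosen with earlier results of these data known, and are described by counts and medians without a list test. Some genes of the further lists passed the low-count filter mainly through the group where they were high, so those counts and medians lean on that group. Named from each further list were up to 6 called genes of largest change whose mean log2 CPM was 0 or more, 19 regulators and partners whatever their values, the nearest protein-coding neighbours, and the 3 closest genes by distance among those whose mean log2 CPM was 1 or more. Some genes that this rule names are left out.

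Alternatives were DESeq2 1.42.0, its size factors in edgeR, scaling by library size, no filter, a filter of 50, a replicate block, fits of 6 libraries, a threshold of 0.01, a minimum of 2-fold, terms for GC content and length, and the omission of each library. The procedure was also run on simulated data with a common dispersion for all genes. Changes were placed there only in genes with more counts than SERPINA1, AFP, SAA1, SAA2 and A1CF had with shNT. The simulation thus does not cover genes with so few counts.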

Additional observations from a re-analysis of the deposited data

Results flagged for a closer look

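FGA and FGB moved in opposite directions with the 2 hairpins against the same shNT libraries, and the direct comparison of shLITATS1-2 with shLITATS1-1 passed for both (edgeR, adjusted by Benjamini-Hochberg). The log2 difference was -1.54 for FGA (adjusted p = 1.77e-39) and -1.03 for FGB (adjusted p = 7.49e-28), and in each case all 3 libraries of one hairpin lay above shNT and all 3 of the other below it. LITATS1 itself, listed as ZC3H12A-DT, did not differ detectably between the hairpins (adjusted p = 0.438).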

How the results depend on the processing

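Counts of the 10 genes called higher with shLITATS1-1 (7) or shLITATS1-2 (2), called lower with shLITATS1-2 (4), and called lower between hairpins (7) came out at 7 to 7, 2 to 2, 4 to 4 and 6 to 7 when 1 library at a time was left out, and 0 were called higher between hairpins throughout. A minimum of 2-fold, by its construction, left 4 higher with shLITATS1-1, and 0 higher and 2 lower with shLITATS1-2. Genes lower with shLITATS1-1 (2) numbered 1 with DESeq2, 1 at a threshold of 0.01, 0 with a filter of 50, which removes both AGT and SAA1, and 1 to 2 without 1 library; SAA1 was lost without shNT replicate 1 or 3 or shLITATS1-1 replicate 1 or 2, its log2 change lying between -3.23 and -0.78. The filter of 50 also left 2 lower with shLITATS1-2. It removes SERPINA1 and AFP as well, both called higher with shLITATS1-1. Over the alternatives that kept all libraries, the count called lower between hairpins fell to as few as 5. SAA1 between hairpins, which never passed, ran from -1.10 to 1.35, the latter without shLITATS1-1 replicate 3. Scaling by library size moved the median of all genes to 0.11 with shLITATS1-2 and to 0.15 between hairpins, and on that scale CEBPB with shLITATS1-2 turned to 0.10 and, between hairpins, NLN to 0.11, RBM47 to 0.12, STAT3 to 0.0928 and SYNCRIP to 0.0548; SYNCRIP also turned to 0.0463 with the GC term, and the cause was not tested. With library-size scaling the genes called with shLITATS1-2 were 6058 higher and 2967 lower, against 4302 and 4485, and FGB fell by 0.15 on the log2 scale (adjusted p = 0.0231).

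Replicate numbers did not pair libraries: same-numbered libraries correlated between -0.06 and 0.04 over 9 pairs, with 1 of 9 closest to its own number. With the replicate block, 7 and 2 genes were called higher and lower with shLITATS1-1, 2 and 4 with shLITATS1-2, and 0 and 7 between hairpins, as without it. Depth limits SERPINA1, AFP, AGT, SAA1, SAA2 and A1CF, which had at most 74 counts in any library.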
